A study of Rattus norvegicus with 18 samples.

Results

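H3K4me3 ChIP-seq of primary rat Schwann cells was compared between 3.5 h and 30 min after washout of cAMP. All 16364 peaks of the deposited table entered the comparison, that is, every row except the counting summaries whose names start with __. The comparison used 6 of the 18 libraries of the series, 3 at each time. The cells were isolated from sciatic nerves of 3-month-old Fisher rats, purified and passaged, and grown without neuregulin or forskolin during the experiment. Both groups received the membrane-permeable analog 8-CPT-cAMP for 30 min, were washed and given fresh medium, and were fixed 30 min or 3.5 h later. The dose is 100 μM in one field of the labels and 50 μM in another. The 3 control libraries, from cells without cAMP, shared the model of the spread and set the level classes. The labels do not say whether replicates came from separate animals or cultures, so p-values measure the spread between these libraries.

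Trimethylation of lysine 4 on histone H3 is deposited by the SET1 and MLL methyltransferases and is concentrated around the start sites of active genes. Demethylases of the KDM5 family remove it in a reaction that needs Fe(II). Schwann cells ensheathe the axons of peripheral nerves, and cAMP signaling drives their differentiation towards myelination. Very wide domains of the mark often cover genes that define a cell's identity, whereas weak peaks can also occur at enhancers.

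The deposited table names peaks only by number and position on Rnor_6.0. For 20 genes that the study listed as higher at 3.5 h, the peak was found here by its mean level, as described below with their values. RefSeq held promoter windows on GRCr8 (250 bases before to 50 after the start site) for 13 of these 20 genes. The windows of 4 of them are shown because their peaks rose and because they carry motifs known at CpG-rich or cAMP-responsive promoters. In the first pair, capitals mark the GC box, GGGCGG or CCGCCC. The *Slc25a23* window lies at chr9:1985316-1985615 on the minus strand and the *Samd1* window at chr19:41059146-41059445 on the minus strand.
Slc25a23: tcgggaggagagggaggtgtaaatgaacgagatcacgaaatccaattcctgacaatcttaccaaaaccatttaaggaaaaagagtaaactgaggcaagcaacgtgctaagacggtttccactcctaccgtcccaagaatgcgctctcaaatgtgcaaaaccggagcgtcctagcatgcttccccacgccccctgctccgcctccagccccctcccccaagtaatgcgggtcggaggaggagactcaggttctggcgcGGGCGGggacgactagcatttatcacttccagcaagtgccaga
Samd1: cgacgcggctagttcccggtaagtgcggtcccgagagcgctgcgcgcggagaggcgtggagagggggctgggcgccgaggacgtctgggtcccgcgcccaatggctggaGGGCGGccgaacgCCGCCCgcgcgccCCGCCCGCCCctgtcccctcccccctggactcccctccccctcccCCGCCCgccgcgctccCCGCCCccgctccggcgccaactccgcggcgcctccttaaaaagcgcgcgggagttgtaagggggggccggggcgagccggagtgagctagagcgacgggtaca
In the second pair, capitals mark TGACG, the core of the cAMP response element, on either strand. The *Fpgt* window lies at chr2:246778799-246779098 and the *Ptp4a1* window at chr9:40718127-40718426, both on the minus strand.
Fpgt: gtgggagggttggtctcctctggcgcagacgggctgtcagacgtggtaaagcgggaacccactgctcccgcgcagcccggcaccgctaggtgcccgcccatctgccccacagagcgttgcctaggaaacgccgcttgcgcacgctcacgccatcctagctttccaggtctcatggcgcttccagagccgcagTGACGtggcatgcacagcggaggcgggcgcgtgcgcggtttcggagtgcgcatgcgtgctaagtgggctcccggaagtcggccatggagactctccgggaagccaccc
Ptp4a1: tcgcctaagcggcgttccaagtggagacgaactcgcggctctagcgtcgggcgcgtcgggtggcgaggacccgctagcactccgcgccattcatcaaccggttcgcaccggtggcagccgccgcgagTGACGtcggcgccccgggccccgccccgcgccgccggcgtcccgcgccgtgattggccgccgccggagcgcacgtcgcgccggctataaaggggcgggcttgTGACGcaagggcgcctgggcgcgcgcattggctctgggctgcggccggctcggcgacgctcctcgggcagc
The full element TGACGTCA, which contains TGACG, was in 0 of the 14 windows of these 13 genes and in 1.83% of all 33469 RefSeq promoter windows. TGACG or its complement CGTCA was in 4 of the 14 windows and in 21.2% of all windows. The GC box was in 11 of the 14 windows and in 33.1% of all. The 14 windows held 10 to 54 CG dinucleotides, with a median of 29.5 against 7 over all windows. All RefSeq windows were taken whether or not they carry H3K4me3, so these contrasts do not show what is particular to the listed genes. The windows of *Samd1* overlap each other, as do those of *Fpgt* and *Lrriq3*, so some sites are counted again. Letters in a window do not show that a factor binds there, and whether a window lies inside the matched peak was not checked because the builds differ.

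Reads in peaks numbered 15350058 to 17160987 in the libraries at 30 min and 14235305 to 15499672 at 3.5 h. They made up 75.1%, 79.1% and 75.4% of all counted reads in replicates 1 to 3 at 30 min and 79.1%, 87.2% and 88.5% at 3.5 h. The means were 76.5% ± 2.24 (SD, n = 3) and 84.9% ± 5.08 (SD, n = 3), a difference of 8.39 percentage points (two-sided exact permutation test, p = 0.2, where 3 libraries against 3 cannot go below 0.1). Replicate 1 at 3.5 h lay with the 30 min libraries in this share. The replicates at 3.5 h also varied more between themselves, with a biological coefficient of variation of 4.12% against 1.31% at 30 min. The values depended on single libraries, from 1.80% (without replicate 1) to 6.97% (without replicate 2) at 3.5 h and from 0.988% to 2.16% (without replicate 2) at 30 min, so these ranges overlapped. Input libraries, which carry no immunoprecipitation, had 0 changed peaks of 3320 tested (same edgeR model as below, with 21 higher and 17 lower at an unadjusted p under 0.05). They held only 27344 to 835518 reads in peaks, and their coefficient of variation was 26.8% against 1.96% for the 9 ChIP libraries. Changes as small as most of those in ChIP could therefore hardly be called in input.

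With counts scaled to the reads in peaks, 2928 peaks rose and 3813 fell from 30 min to 3.5 h, which is 17.9% and 23.3% of the peaks tested (quasi-likelihood F-test in edgeR at a false discovery rate of 0.05). The rises were small and the falls larger. A called rise had a median log2 fold change of 0.13 and a called fall one of -0.30. Only 18 peaks (0.11%) rose by more than 1.5-fold, whereas 1003 (6.13%) fell by more than that. Past 2-fold there was 1 called rise (0.00611%) against 424 falls (2.59%). In these bulk cultures, fewer cells with the mark at a site and less of the mark per cell cannot be told apart. The 3 libraries of the 2 times did not overlap at 8101 peaks (49.5%), 3746 higher (22.9%) and 4355 lower (26.6%) at 3.5 h, and 6237 of these (38.1% of all) were also called. Scaling to all counted reads in place of reads in peaks moved the median log2 fold change over all peaks from 0.00 to 0.16. With that scaling 7878 peaks rose (48.1%) and 1668 fell (10.2%), so the share of rises among called peaks went from 43.4% to 82.5%. Directions below are therefore relative to the typical peak. Tested against a 1.2-fold change in place of no change, 33 peaks rose (0.202%) and 899 fell (5.49%). The spread was pooled over the 9 ChIP libraries. With only the 6 compared libraries in the fit, 2246 peaks rose and 3235 fell. Without 3.5 h replicate 3, 1867 peaks were called as rises and 3061 as falls of any size. Falls past 2-fold then numbered 276.

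The direction of change followed how densely a peak was marked in untreated cells. Peaks were divided into 5 level classes of equal size by their reads per kb in the control libraries, which take no part in the contrast itself. In the lowest class, 94 of 3273 peaks rose and 1084 fell, whereas in the highest class 1346 rose and 241 fell. With single libraries of the 2 times left out, the lowest class had 53 to 115 rises and 821 to 1285 falls, with the fewest rises without 30 min replicate 1 or 2 or 3.5 h replicate 2. The highest class then had 801 to 1690 rises and 132 to 272 falls, with the fewest rises without 3.5 h replicate 3 or 30 min replicate 1, and the fewest falls without 3.5 h replicate 2 or 30 min replicate 1 or 2. Denser peaks held more reads, so smaller changes could be called there, and the shares called depend on this too. As percentages of the class, rises went from 2.87% through 8.22%, 15.4% and 21.8% to 41.1% from the lowest class to the highest. Falls went from 33.1% through 27.7%, 27.9% and 20.4% to 7.36%. Median log2 fold changes were -0.18 in the lowest class, -0.02, -0.01 and 0.01 in the next, and 0.06 in the highest, against 0.00 over all peaks. The plot of change against control level shows the falls spreading downwards at low levels. With all counted reads as library size, the lowest class kept more falls (371 rises, 885 falls). Level classes 2 and 3 then had more rises than falls (1161 and 505, 1637 and 206).

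**Figure D1:**
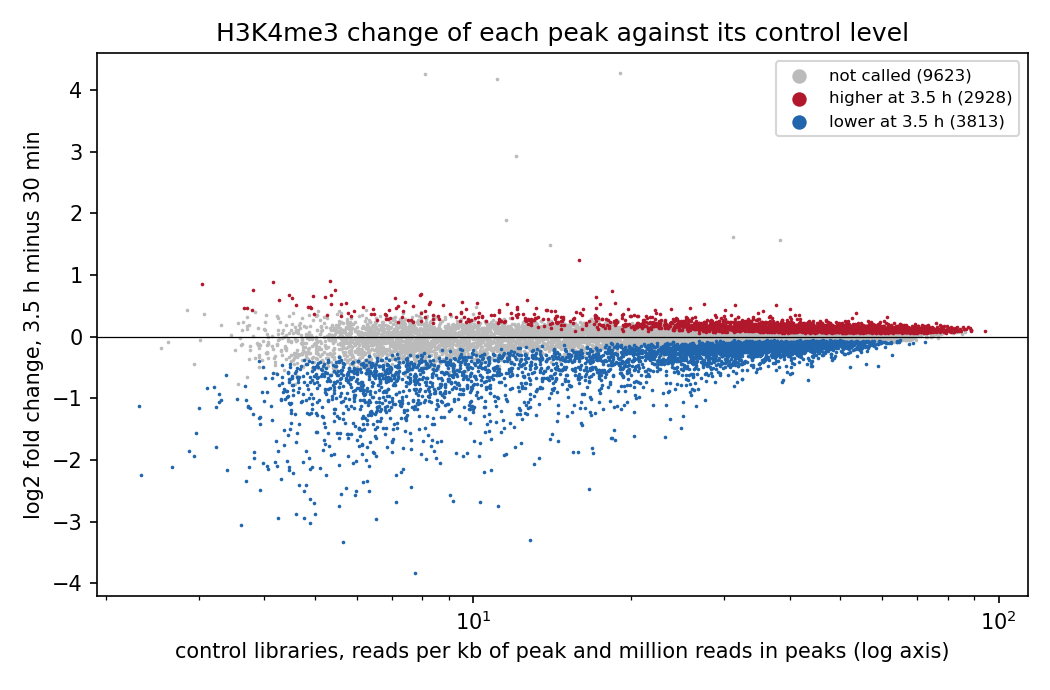
Log2 fold change of each of the 16364 peaks (3.5 h minus 30 min) against its level in the control libraries, in reads per kb of peak and 1000000 reads in peaks on a log axis. Each point is a peak, coloured by its call. Falls past -1 lie mostly at low control levels, and the few grey points above 1 are 8 peaks whose rise was not called.

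In reads, the lowest level class held 2.90%, 2.73% and 3.02% of the reads in peaks at 30 min and 2.62%, 2.57% and 2.22% at 3.5 h, with no overlap. Its mean fell by 0.414 percentage points, or 14.3% of its share (two-sided exact permutation, p = 0.1, adjusted p = 0.125 over the 5 classes). The densest class went from 37.4%, 38.2% and 37.6% to 38.5%, 39.1% and 39.99%, also without overlap, a rise of 1.45 percentage points (same exact test, p = 0.1, adjusted p = 0.125). The class below it did not separate, with means of 28.3% at both times (exact p = 0.7). The share of reads outside peaks moved along with this pattern. The library with the highest share in the lowest class at 3.5 h was replicate 1, which also had the most reads outside peaks of that time. Replicate 2 at 30 min and replicate 1 at 3.5 h had the same 20.9% of reads outside peaks. Between these 2 libraries the lowest class differed by -0.112 percentage points and the densest by 0.252, less than the differences of the means. The part of the reads outside peaks in the result was not tested. With loess offsets, which remove a trend with abundance from each library, 411 peaks of the lowest class rose and 757 fell, and 1214 of the highest class rose and 327 fell. Because the authors removed duplicate reads, each start position on a strand can count only once, and reads filled 41.4% to 46.7% of the possible starts in an average peak of the densest class, against 4.71% to 7.55% in the lowest.

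By width, the balance of rises and falls depended on the scaling. Of 1585 narrow peaks under 700 bp, 58 rose (3.66%) and 412 fell (26.0%), with a median log2 fold change of -0.13. The 12080 peaks of 700 to under 2500 bp, the bulk of the table, had 2287 rises (18.9%) and 2538 falls (21.01%) and a median of 0.01. Among 2156 peaks of 2500 to under 4000 bp, 475 rose (22.0%) and 634 fell (29.4%). The 543 domains of 4000 bp or wider had the largest share of called falls, 229 (42.2%), against 108 rises (19.9%), with a median of -0.05. Wider peaks held more reads each, so smaller changes could be called there. Narrow peaks had the lower median but the smaller share of called falls. Falls past 2-fold made up 10.7% of the narrow peaks, 2.03% of those of 700 to under 2500 bp, 0.325% of the next class and 0.552% of the widest. With loess offsets, narrow peaks had 257 rises and 243 falls and the domains 95 rises and 259 falls. With all counted reads as library size, narrow peaks had 254 rises and 349 falls and the domains 238 rises and 59 falls. Neither class therefore kept more falls than rises under every scaling. The 58 rises of narrow peaks became 19 without 30 min replicate 1, 26 without 3.5 h replicate 2, 30 without 3.5 h replicate 3, 37 without 30 min replicate 2 and 17 with DESeq2.

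**Figure D2:**
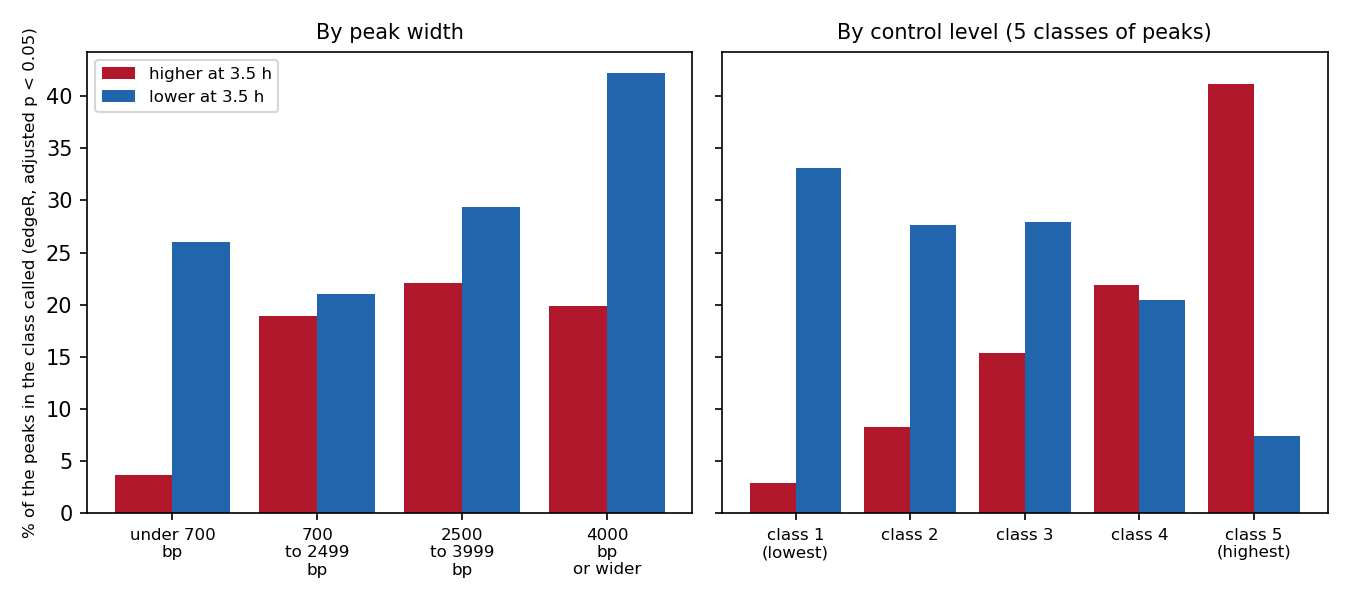
Percentage of the peaks of each class called higher or lower at 3.5 h than at 30 min (edgeR, adjusted p under 0.05), by peak width on the left and by 5 classes of control level on the right. With this scaling falls outnumber rises in every width class, an order that turned for narrow peaks with loess offsets (257 rises, 243 falls), for the 3 wider classes with all counted reads, and for peaks of 700 to under 2500 bp also without TMM. Rises outnumber falls in the highest level class, except against a 1.2-fold change (1 rise, 3 falls), while in class 4 (715 rises, 669 falls) the order turned with loess offsets (652 and 764), DESeq2 (378 and 446), the 6 libraries alone (540 and 561), edgeR's exact test (605 and 616), a 1.2-fold test (3 and 20), and without 30 min replicate 3 (601 and 654) or 3.5 h replicate 3 (422 and 529). In classes 2 and 3 the order turned with all counted reads (1161 rises and 505 falls, 1637 and 206).

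Width and level were also crossed, with shares of called peaks that again depend on the reads per peak. In the densest level class, 28 narrow peaks had 15 rises and 0 falls, and 2484 peaks of 700 to under 2500 bp had 1055 rises (42.5%) and 131 falls (5.27%). The 139 domains of the densest class had 51 rises (36.7%) and 38 falls (27.3%). In the middle class, 51.3% of 158 domains fell against 24.2% of 2425 peaks of 700 to under 2500 bp. In the lowest class, 32.0% of 1050 narrow peaks fell, close to the 33.5% of 2156 peaks of 700 to under 2500 bp. Narrow peaks were mostly weak peaks, 1050 of the 1585 lying in the lowest class. The domains held 11.10%, 11.03% and 10.97% of the reads in peaks at 30 min and 10.91%, 10.67% and 10.58% at 3.5 h, which did not overlap. Their mean fell by 0.315 percentage points (two-sided exact permutation test, p = 0.1, adjusted p = 0.133 over the 4 classes). Narrow peaks fell by 0.0903 points from 1.18% ± 0.0267 (SD, n = 3) to 1.09% ± 0.0478 (SD, n = 3), and peaks of 700 to under 2500 bp rose by 0.524 points (exact p = 0.1 and adjusted p = 0.133 for each). With all counted reads as the denominator, the differences of the narrow class, of the 2500 to under 4000 bp class and of the domains turned positive.

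Largest gains and losses were named only among called peaks whose libraries of the 2 times did not overlap. The largest gain lay near the end of chromosome 5. Peak_6356 (chr5:173688590-173689829, 1240 bp) had 20.4, 17.8 and 20.4 CPM at 30 min and 48.9, 43.7 and 45.9 CPM at 3.5 h, where CPM are counts per 1000000 TMM-scaled reads in peaks. All 3 later libraries lay above 2 times the earlier level. The log2 fold change was 1.24 (SE 0.07, adjusted p = 1.64e-06), and the mark went from 14.7 to 38.6 times the level of the pooled input. Control cells had 19.8 CPM there, close to the 30 min level.

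Other gains with small p-values lay at peaks with more reads. Peak_7855 (chr1:267089551-267093918), a domain of 4368 bp, had 69.5, 65.1 and 71.9 CPM at 30 min and 108, 107 and 108 CPM at 3.5 h. It was the largest gain among the widest peaks, with a log2 fold change of 0.65 (SE 0.04, adjusted p = 2.01e-06). Peak_7922 (chr10:14012131-14014399) went from 70.7, 70.6 and 73.0 CPM to 98.6, 102 and 107 CPM, a log2 fold change of 0.52 (SE 0.03, adjusted p = 2.01e-06). Peak_5543 (chr3:156338990-156342957), the largest gain among peaks of 2500 to under 4000 bp, went from 68.8, 67.0 and 76.5 CPM to 96.1, 107 and 105 CPM. The libraries of the 2 times did not overlap at these peaks, which is a condition for naming the largest gains.

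The remaining 7 of the 8 largest gains were weaker peaks, with log2 fold changes of 0.69 to 0.91. Peak_8624 on chromosome 12 (22642157 to 22642956) went from 4.06 ± 0.422 to 7.59 ± 1.65 CPM (SD, n = 3 at each time). Peak_6592 on chromosome 1 (31710516 to 31710922), the largest gain among narrow peaks, went from 1.72 ± 0.392 to 3.21 ± 0.418 CPM. Peak_3870 on chromosome 15 (95511909 to 95514151) and Peak_6183 on chromosome 5 (140923719 to 140924577) ended at 12.2 ± 2.25 and 11.5 ± 0.943 CPM. Peak_4824 on chromosome 2 (187978520 to 187979068) ended at 3.71 ± 0.202 CPM and Peak_6398 on chromosome 6 (12365955 to 12366537) at 4.77 ± 0.961 CPM. Peak_1958 on chromosome 6 (103376188 to 103376909) had 8.32, 6.997 and 6.84 CPM at 30 min and 12.9, 10.9 and 13.3 CPM at 3.5 h. Its level in control, 13.3 CPM, was that of the later libraries, whereas the other 7 largest gains had control levels close to those at 30 min. Against a fold of 1.2 in place of no change, Peak_6592 and Peak_6398 were not called.

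The 8 largest losses were weak, short peaks that ended at 0.897 to 2.70 times the level of pooled input. Pooled input held only 14 to 40 reads at each of them, so these ratios are rough. Peak_14692 (chrX:66677710-66678050, 341 bp) held 94, 66 and 49 reads in the earlier libraries but only 8, 2 and 3 in the later ones. In CPM this was 5.51, 4.32 and 3.05 against 0.514, 0.138 and 0.211, a log2 fold change of -3.84 (SE 0.46, adjusted p = 9.69e-05). Relative to pooled input it went from 20.95 to 1.53 times. Every later library lay far below every earlier one. Peak_347 (chr17:18104753-18105288) went from 90, 50 and 41 reads to 7, 5 and 4, and Peak_9142 (chr14:24094452-24094870) from 134, 106 and 97 reads to 5, 14 and 12. The other 5 were Peak_9964 (chr17:45544122-45545069), Peak_9551 (chr15:87968474-87968900), Peak_10971 (chr1:137209208-137209889), Peak_10976 (chr2:208575928-208576346) and Peak_13495 (chr7:46993308-46993871), with log2 fold changes of -2.93 to -3.06. All 8 were 341 to 948 bp wide, with 2.99 to 6.94 CPM at 30 min and 0.287 to 0.793 CPM at 3.5 h. With so few reads at 3.5 h, the sizes of these falls are less certain than their direction.

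**Figure D3:**
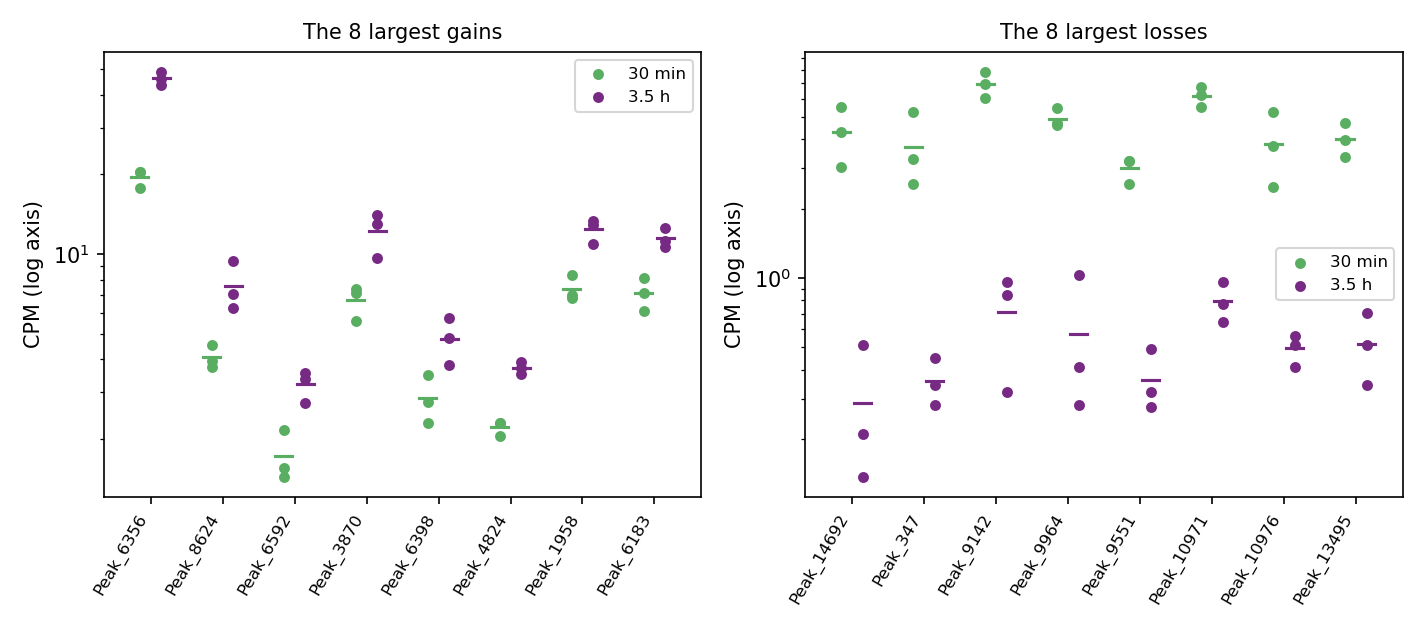
CPM (log axis) of the 8 largest gains on the left and the 8 largest losses on the right, in each library at 30 min and 3.5 h. Points are libraries and short lines are means of 3. No peak has overlapping times, because the peaks were chosen among those without overlap. The gains stay under 1.9-fold except at Peak_6356, and the losses end below 1.1 CPM.

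Losses at peaks with more reads were smaller in fold. The peaks given here also lay in the lowest class of control level. Peak_13991 (chr8:52515973-52517042), the loss with the smallest p, went from 13.8, 11.5 and 9.88 CPM to 2.31, 1.72 and 1.90 CPM (log2 fold change -2.56, SE 0.17, adjusted p = 3.15e-06). Peak_15815 (chr11:88686372-88689498, 3127 bp) went from 40.9, 35.0 and 29.7 CPM to 12.3, 8.87 and 7.73 CPM. The domain at Peak_5717 (chr4:58364970-58369165, 4196 bp) went from 74.4, 62.1 and 54.3 CPM to 28.8, 22.7 and 21.4 CPM, a log2 fold change of -1.39 (SE 0.12, adjusted p = 1.17e-05), the largest loss among the widest peaks. At 3.5 h it still stood at 7.55 times input.

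The 424 peaks that fell by more than 2-fold had a median width of 803 bp, and 356 of them belonged to the lowest class of control level, 66 to the next and 2 to the rest. Their median level was 5.39 CPM in control, 6.93 CPM at 30 min and 2.52 CPM at 3.5 h. All 424 had been at least 4 times above pooled input at 30 min, with a median of 11.3 times. At 3.5 h the median was 4.596 times, 249 were still at least 4 times above input and 5 were under 1.5 times. Summed over these peaks, the libraries held 4890, 4287 and 4132 CPM at 30 min and 2331, 1679 and 1213 CPM at 3.5 h, against 3428 to 3613 CPM in control. The peaks were chosen by this fall, so these sums describe them and test nothing. In 388 of the 424 all 3 libraries at 3.5 h lay below all control libraries. Choosing peaks that were low at 3.5 h favours this count, and its share over all peaks was not computed. Replicate 1, with the most reads outside peaks at 3.5 h, was the highest of the 3 at 359 of these peaks. The 2 libraries with 20.9% of reads outside peaks held 4287 CPM at 30 min and 2331 CPM at 3.5 h. The choice of these peaks largely fixed that direction in advance.

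Chromosomes differed little. Over chromosomes 1 to 20 and X, the share of peaks that rose was between 16.04% and 21.3% and the share that fell between 19.0% and 27.4%, around the 17.9% and 23.3% of all peaks. Chromosome 17 had both the largest share of rises, 122 of 573 peaks, and the largest share of falls, 157. It also had 33 falls past 2-fold (5.76% of its peaks against 2.59% of all). Chromosome 1, with 2000 peaks, had 322 rises (16.1%) and 533 falls (26.7%), whereas chromosome 5, with 1124, had 227 rises (20.2%) and 213 falls (19.0%). The X chromosome had 83 rises and 115 falls among 475 peaks. Median log2 fold changes lay between -0.02 (chromosome 12) and 0.02 (chromosome 5).

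As a share of the reads in peaks, chromosome 1 went from 12.34% ± 0.0190 to 12.23% ± 0.0544 (SD, n = 3), the largest fall, and chromosome 5 from 6.59% ± 0.00762 to 6.65% ± 0.0216, the largest rise. The libraries of the 2 times did not overlap at 7 of the 21 chromosomes (two-sided exact permutation test, p = 0.1 each, adjusted p = 0.3), and no chromosome's share moved by more than 0.955% of itself. With all counted reads as the denominator, the fall of chromosome 1 became a rise of 0.94 percentage points.

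Neighbouring called peaks changed the same way most often at the shortest gaps when counts were scaled to reads in peaks. Among 1286 adjacent pairs less than 2 kb apart, both peaks were called in 284, and 200 of these pairs (70.4%, 95% Wilson interval 64.9% to 75.4%) changed the same way, 43 with both higher and 157 with both lower. The share was 58.9% of 336 pairs at gaps of 2 to under 10 kb, 55.1% of 1392 pairs at 10 to under 100 kb and 50.7% of 841 pairs at 100 kb or more (interval 47.3% to 54.0%). Over all gaps it was 55.8% of 2853 pairs. With all counted reads as library size, the share under 2 kb was 68.7% against 74.6% over all gaps, so the order turned. Of all pairs, called or not, 56.4% had the same sign under 2 kb and 51.9% at 100 kb or more. The called pairs under 2 kb held more falls than rises, with 84 pairs of opposite change, so an even split is no baseline for their share. Pearson's r between the log2 fold changes of neighbours was 0.17, 0.14, 0.06 and 0.04 in the same order of gaps. These are descriptions over pairs of peaks, which share libraries and can share peaks, and the intervals cover counting error only. Neighbours can also be parts of a wider marked region that the peak caller split.

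Runs of consecutive called peaks of the same direction were short. The longest run of rises, 6 peaks over 1206 kb of chromosome 8 (55492080 to 56697759), had small changes of 0.12 to 0.25 on the log2 scale, for example at Peak_2392, which went from 47.2, 46.3 and 47.8 CPM to 51.7, 56.9 and 59.2 CPM. The run broke when a library was left out, since Peak_7170 was not called without 3.5 h replicate 2 and Peak_14000 was not called without 30 min replicate 1. Falls had 8 runs of 6 peaks. The most compact of them, chosen from these equals by its span, covered 13.3 kb of chromosome 17 (45632390 to 45645675) with log2 fold changes from -0.41 to -1.90. Within it, Peak_9970 went from 23.0, 20.5 and 20.1 CPM to 8.48, 4.88 and 3.51 CPM, and Peak_402 from 21.5, 21.3 and 21.8 CPM to 19.3, 15.9 and 13.5 CPM. Peak_9964, among the largest losses, lay upstream on the same chromosome.

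The surroundings of gains are given at 2 sites picked after their values were seen. A gain stood near losses on chromosome 1, where Peak_7855 rose while Peak_14913, 26.4 kb away, fell by 0.24 on the log2 scale (SE 0.06, adjusted p = 0.00488). At 144.7 kb from Peak_7855, the domain at Peak_14915 (chr1:267238584-267242923) fell from 36.7, 32.4 and 35.6 CPM to 18.04, 15.6 and 14.5 CPM (log2 fold change -1.12, SE 0.08, adjusted p = 4.27e-06). Peak_14916, only 348 bp further on and far stronger, fell from 198 ± 7.55 to 168 ± 3.85 CPM (SD, n = 3), a log2 fold change of -0.23. Peak_14917 fell by 0.63 on the same scale. On chromosome 6, where the nearest other peak was not called, 3 neighbours 951 and 123 bp apart all rose, Peak_6396 by 0.55, Peak_6397 by 0.68 and Peak_6398 by 0.75 on the log2 scale, while Peak_1855, 27.9 kb away, had a change of -0.05 (adjusted p = 0.379).

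**Figure D4:**
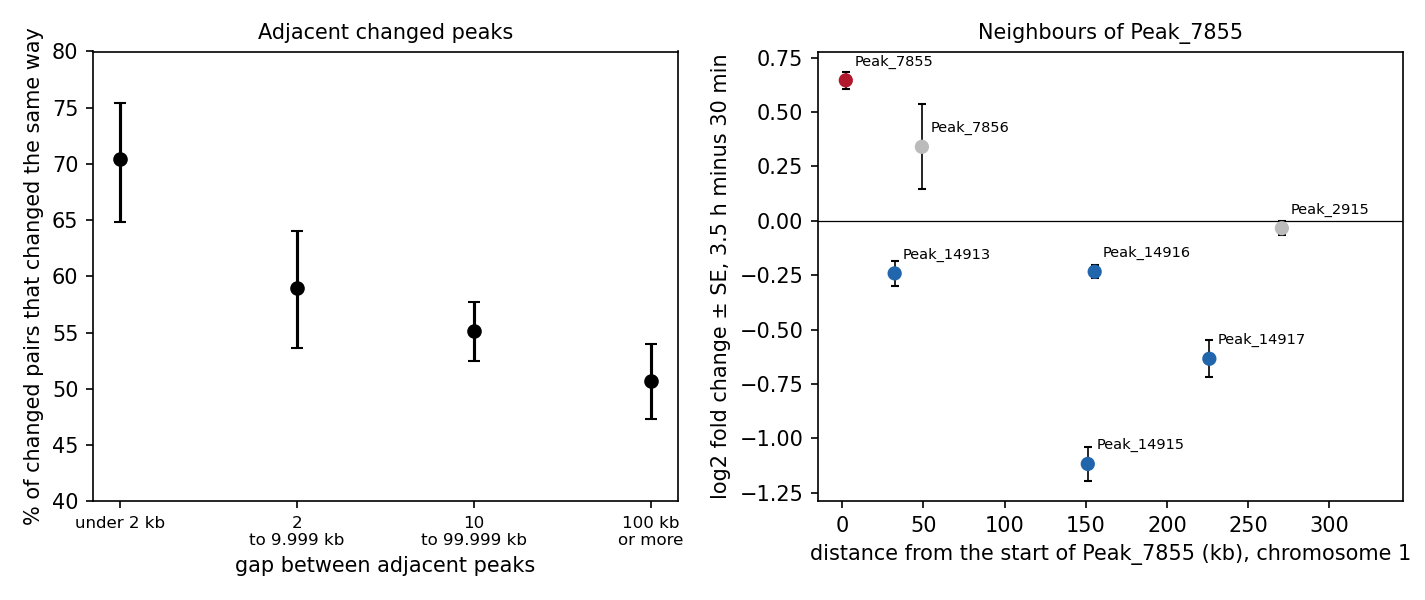
Left, percentage of adjacent pairs of called peaks that changed the same way, by the gap between them, with 95% Wilson intervals for counting error. The share is 70.4% under 2 kb and 50.7% at 100 kb or more. Right, log2 fold change with its standard error of Peak_7855 and its neighbours on chromosome 1 by distance (red higher, blue lower, grey not called): a gain of 0.65 lies 144.7 kb from a loss of -1.12.

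The study's 20 genes listed as highest at 3.5 h lay at 19 peaks, and 18 of these rose, against 17.9% of all peaks, with log2 fold changes of 0.24 to 0.43 and no overlap between times. The authors chose this list on these libraries and this contrast, so the count is no independent evidence. Genes were tied to peaks by level, since the list gives averages per kb for each condition. The nearest peak differed from those by at most 0.106%, and the second nearest was at least 10.1 times further off. The listed genes were not the largest rises. *Slc25a23*, with the largest called change of the list, was exceeded by 59 other called peaks, and *Pdss1*, with the smallest, by 280.

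*Slc25a23*, a mitochondrial carrier of adenine nucleotides, had 24.7, 24.2 and 27.3 CPM at 30 min and 33.5, 32.1 and 37.0 CPM at 3.5 h at Peak_7421 (chr9:9987934-9988905), a log2 fold change of 0.43 (SE 0.06, adjusted p = 0.000363). *Samd1*, a protein that binds unmethylated CpG islands and a RefSeq neighbour of *Prkaca*, the catalytic subunit of the cAMP-dependent kinase, went from 16.2, 16.3 and 17.03 CPM to 21.9, 20.1 and 21.8 CPM at Peak_10382 (chr19:25118477-25119535). *Fpgt*, an enzyme of fucose salvage, shared Peak_948 (chr2:261402118-261403568) with its neighbour *Lrriq3*. That peak went from 46.6, 44.2 and 43.5 CPM to 54.3, 53.9 and 53.9 CPM, and its 3 later libraries lay close together. *Ptp4a1*, a tyrosine phosphatase, rose by 0.25 on the log2 scale (adjusted p = 0.00125). These are the genes whose promoter windows are printed above.

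Wide domains were also on the list, with 4 of the 19 peaks at 4000 bp or wider. Peak_8371 (chr10:109189520-109202389), 12870 bp wide and matched to *Mir3065*, had 415, 416 and 423 CPM at 30 min and 515, 495 and 491 CPM at 3.5 h (log2 fold change 0.26, SE 0.02, adjusted p = 1.11e-05). RefSeq places *Mir3065* beside *Mir338* at *Aatk*, a kinase gene of neural cells, and miR-338 is known from the maturation of myelinating glia. The mature arms of *Mir3065* are shown to identify the locus, with the seed (bases 2 to 8) in capitals, from RefSeq on GRCr8 (plus strand, chr10:105796345-105796364 and chr10:105796384-105796407).
rno-miR-3065-5p: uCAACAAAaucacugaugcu
rno-miR-3065-3p: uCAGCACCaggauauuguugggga
The domain of *Dlx2*, a homeobox transcription factor, at Peak_1153 (chr3:58177989-58182842) had 236, 238 and 239 CPM against 282, 282 and 290 CPM. That of *Kank2*, an adaptor between focal adhesions and the cytoskeleton, at Peak_2337 (chr8:22814592-22821746) had 161, 166 and 168 CPM against 207, 202 and 196 CPM. In all of them the later libraries lay above the earlier ones, while 42.2% of all domains of 4000 bp or wider fell.

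**Figure D5:**
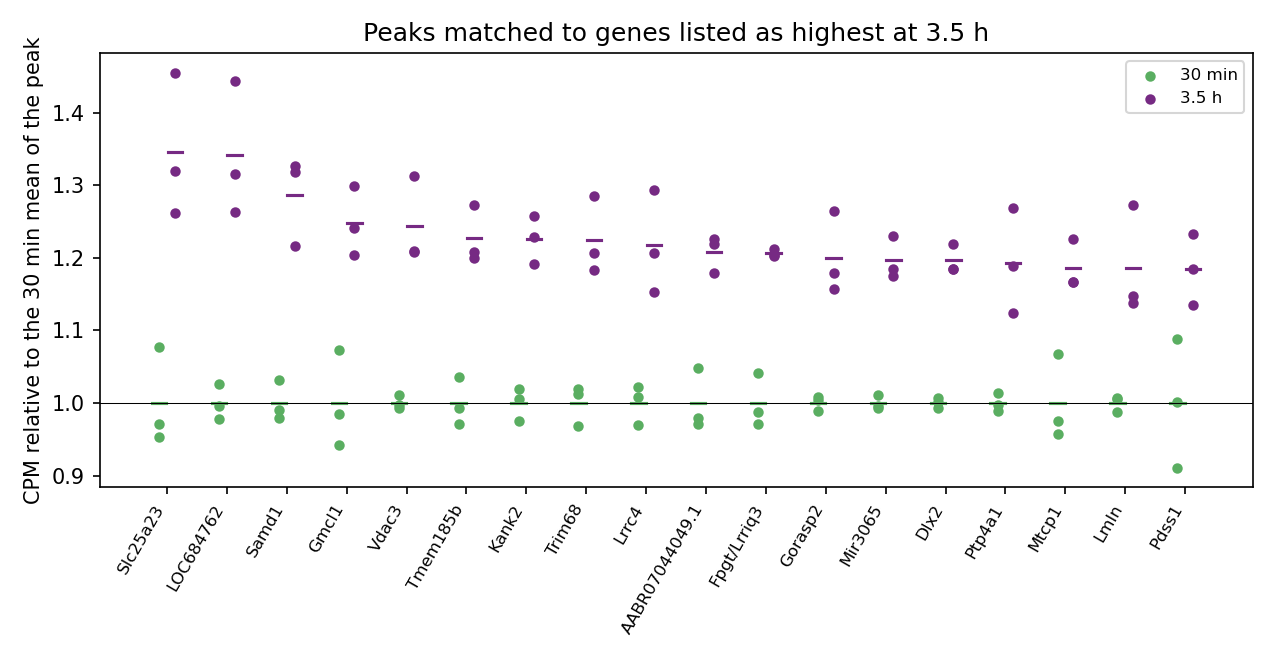
CPM relative to the 30 min mean of each peak, in every library at 30 min and 3.5 h, for the 18 called peaks matched to genes that the study listed as higher at 3.5 h than at 30 min. Points are libraries and short lines are means of 3. The list was chosen on this contrast. The axis does not start at 0.

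The other called peaks of the list had log2 fold changes of 0.24 to 0.42. They were matched to *LOC684762*, *Gmcl1*, *Vdac3* (a channel of the outer mitochondrial membrane), *Tmem185b*, *Trim68* (a ubiquitin ligase), *Lrrc4* (a synaptic adhesion protein), *AABR07044049.1*, *Gorasp2* (a Golgi stacking protein), *Mtcp1*, *Lmln* and *Pdss1* (an enzyme of coenzyme Q synthesis). *Vdac3* went from 66.2 ± 0.643 to 82.3 ± 3.96 CPM (SD, n = 3) and *Pdss1* from 24.5 ± 2.17 to 29.0 ± 1.21 CPM. Against a fold of 1.2 in place of no change, *Slc25a23* was the only called peak of the 18.

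A second list of the study, genes with less H3K4me3 at 30 min than in control, was also chosen with these 30 min libraries and shared 8 peaks with the first. Of its 18 peaks, 16 rose from 30 min to 3.5 h, against 17.9% of all peaks. Choosing peaks that were low at 30 min favours a later rise, so this count is no independent evidence either. *Ptges3*, a cochaperone of HSP90, had 121, 126 and 123 CPM at 30 min and 140, 144 and 150 CPM at 3.5 h. *Zfp692*, a zinc finger protein, went from 64.7 ± 0.954 to 76.3 ± 1.81 CPM and *Glis2*, a zinc finger transcription factor, from 80.8 ± 2.02 to 93.2 ± 1.96 CPM (SD, n = 3). *Ctgf*, a secreted matrix protein, was not called, with 137, 132 and 127 CPM against 150, 136 and 138 CPM (log2 fold change 0.10, adjusted p = 0.136). The histone genes *Hist1h1d* and *Hist1h3b* rose by 0.16 and 0.23 on the log2 scale. Between their 2 peaks on chromosome 17 (43734080 to 44840288), both included, 13 of 54 peaks rose and 23 fell, against 17.9% and 23.3% of all peaks. In the lowest level class 14 of 18 fell there, against 33.1% of that class.

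*Eln*, the gene of elastin and a member of both lists, was not called. Peak_8639 (chr12:25020773-25021867) had 0.644, 0.719 and 0.373 CPM at 30 min and 32.8, 0.275 and 0.281 CPM at 3.5 h, so that its log2 fold change of 4.28 (SE 1.77, adjusted p = 0.0689) rested on replicate 1 at 3.5 h. Without that library it was -1.03 (adjusted p = 0.765).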

How the data were processed

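H3K4me3 ChIP-seq libraries of rat Schwann cells and their inputs were used. The authors aligned trimmed reads to Rnor_6.0 with BWA, kept uniquely mapped reads without duplicates, and ran MACS2 with a filter on reproducibility. Peaks from all treatments were merged, and HTSeq counted the reads in each. The submitters' processing notes also name CASAVA 1.4 and STAR. The deposited values are raw counts per merged peak. Lines of counting classes outside peaks were 20.9% to 24.9% of reads at 30 min and 11.5% to 20.9% at 3.5 h. In input they were 96.5% to 98.9%. They entered neither the library sizes nor the peak tests of the main fit. They did enter the share of reads in peaks, the levels over input and the alternatives with all counted reads. The labels of 30 min replicate 3 mention a further sequencing run.

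The model was fitted in edgeR 4.0.16 (R 4.3.3), with TMM factors, the filter on low counts (all 16364 peaks passed), the quasi-likelihood fit of 9 ChIP libraries by condition and the contrast of 3.5 h with 30 min, called at an adjusted p under 0.05. Model scripts were tested on simulated data. Shares of reads were compared by an exact permutation of the 6 libraries, which cannot give p under 0.1. Level over input is reads per 1000000 counted reads over that of the 9 pooled inputs. Intervals are Wilson 95% and cover counting error only.

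Named peaks were the 8 largest gains and losses by log2 fold change among called peaks whose libraries did not overlap, the largest of each width class, the 3 of smallest p per direction, the peaks matched to the study's 2 gene lists and the longest runs. The members, lists, classes and rules were chosen with earlier results of these data known. The classes of control level, the counts past a fold, the pair of libraries matched by reads outside peaks and the regions around Peak_7855 and Peak_6396 were added after seeing the values. The alternatives were other library sizes, loess offsets (span 0.3), DESeq2 1.42.0, edgeR's exact test, the 6 libraries alone, other filters and thresholds, a test against a 1.2-fold change, a robust fit, the replicate block, and each library left out. Python 3.11.15, numpy 2.4.6, pandas 2.3.3, scipy 1.17.1 and matplotlib 3.10.9 were used. No annotation of Rnor_6.0 was used here, so peaks were not assigned to genes by position.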

Additional observations from a re-analysis of the deposited data

How the results depend on the processing

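The 3 control libraries left out in turn, the robust fit, no filter, at least 10 counts per library, no TMM and edgeR's exact test kept both counts of changed peaks within 1.5 times of 2928 and 3813. Scaling to all counted reads gave 7878 rises and 1668 falls, DESeq2 1735 rises, an adjusted p under 0.01 1410 rises, and the test against a 1.2-fold change 33 rises and 899 falls. With single libraries left out, rises ranged from 1867 to 3720 and falls from 2666 to 4449, and without 3.5 h replicate 1 the calls included 2817 of the same rises and 3729 of the same falls. Rises past 1.5-fold, 18 as reported, were 69 with all counted reads and 105 with loess offsets. Falls past 2-fold were 277 with loess offsets and 276 to 605 with single libraries left out.

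With all counted reads as the denominator, differences in share turned positive for peaks under 700 bp (0.0214 percentage points), 2500 to under 4000 bp (2.06), 4000 bp or wider (0.652), chromosome 1 (0.94) and level classes 2 and 3 (0.366 and 1.33). Level class 4 ranged from -0.0464 to 0.0727 with single libraries left out, turning negative without 30 min replicate 3 or 3.5 h replicate 3. The same-way share of changed neighbours under 2 kb apart ranged from 68.1% to 76.8% and that of all neighbours from 55.8% to 59.9% with single libraries left out, and with all counted reads they were 68.7% and 74.6%. The *Eln* peak (Peak_8639) ranged from -1.03 without 3.5 h replicate 1 to 4.85 without replicate 2, and passed the threshold in 5 settings. The cause of these shifts was not tested.

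The replicate block gave 3004 rises and 3922 falls. Same-numbered libraries of the 2 times had deviations correlated at r = 0.34, -0.21 and 0.00. The labels do not say whether the numbers pair libraries, and 3 such values cannot decide it. Of 1270 values of 64 named results under their alternatives, 1224 were on the same side of the threshold with the same sign, 38 lost it (36 of them against a 1.2-fold change), 7 gained it and 1 reversed. Depth limits the largest losses, which had 2 to 16 reads per library at 3.5 h.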

Other observations

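Besides the peak matched to *Eln*, 7 peaks more than 2-fold higher in the fit were not called, and library by library they fell into 2 patterns. The peaks were picked by their values. At 3 of them, on chromosomes 14 (6673772 to 6674650), 10 (40742447 to 40743564) and 4 (170856817 to 170857208), and at the *Eln* peak, the mark was present in control replicates 1 and 2 and in 3.5 h replicate 1, with 6.94 to 33.9 CPM, and at most 0.719 CPM in the other 6 libraries. Whether those 3 libraries share an animal or a culture is not given in the labels, and the replicate spread at 3.5 h includes that difference. These were the only 4 peaks of the table over 5 CPM in those 3 libraries and under 1 CPM in the other 6. For example, Peak_7999 on chromosome 10 had 20.1, 17.2 and 0.0692 CPM in control, 0.527, 0.392 and 0.186 CPM at 30 min and 19.5, 0.138 and 0.281 CPM at 3.5 h.

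The other 4 lay on unplaced scaffolds and were highest in replicate 2 of control and of 3.5 h. Peak_2704 had 26.1, 101 and 4.78 CPM in control, 12.7, 4.64 and 9.32 CPM at 30 min and 16.95, 53.6 and 12.3 CPM at 3.5 h.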
